A study of Drosophila melanogaster with 2 samples.

Results

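The genes gcm, gcm2, repo, pnt and ttk, which encode transcription factors that set glial fate in the Drosophila embryo, were followed between glial progenitors and differentiated glia. They were taken as the rows of the deposited expression table with these symbols, and all 5 were found among 13623 rows. Nuclear RNA was measured in 1 library of GNP nuclei (Gcm-expressed neural progenitors, which the sample labels call early glial cells) and 1 library of glial nuclei (late glial cells). GNP nuclei came from embryos of 5 to 7 h after egg laying of the strain gcm-Gal4,UAS-mCDGFP/cyo with UAS-3xFLAG-blrp-mCherry-RanGap. Glial nuclei came from embryos of 12 to 14 h of a strain with repo-Gal4 and the same transgene UAS-3xFLAG-blrp-mCherry-RanGap over the balancer Tm3B. These are the ages on the stage labels, whereas the growth protocol in the labels speaks of 3 and 10 h of development after a collection of 2 h, which would make the embryos younger. Both strains carried the tagged nuclear envelope protein RanGap under the control of Gal4, and its tag was used to pull the nuclei out of a homogenate of whole cross-linked embryos (INTACT). The driver is a limit on what each library stands for. Gcm is also made by hemocyte precursors and tendon cells, so the gcm driver is not restricted to neural cells, whereas repo is expressed in nearly all glia other than midline glia. Cell type, driver, strain and embryo age changed together and cannot be told apart. There was no replicate, so no p-value is given, and intervals cover counting error only.

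Gcm (Glial cells missing) is a zinc-dependent DNA-binding protein that is made briefly in neural progenitors and directs them to glia instead of neurons. Gcm2 is its paralog and acts with it in glia and hemocytes. Gcm activates repo, pnt and ttk. Repo is a homeodomain protein that maintains the terminal glial program, Pnt (Pointed) is an ETS factor that acts downstream of Ras and MAP kinase and works with Repo on glial genes, and Ttk (Tramtrack) is a BTB zinc finger repressor that keeps neuronal genes off in glia.

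The gene models bear on how far each value can be read. In the BDGP6 annotation, which is later than the annotation used for the deposited values, gcm (FBgn0014179) lies on chromosome 2L from 9579498 to 9581745 (minus strand), with 2 transcripts of 2 exons each. The paralog gcm2 (FBgn0019809) lies on chromosome 2L from 9608562 to 9612706 (plus strand), with 1 transcript of 4 exons. The pair is thus head to head with 26816 bases between them, in which 3 other genes are annotated. The gene repo (FBgn0011701) lies on chromosome 3R from 18236192 to 18239602 (plus strand), with 1 transcript of 2 exons. The gene pnt (FBgn0003118) spans 55937 bases of chromosome 3R, from 23290231 to 23346167 (minus strand), with 4 transcripts from 3 start sites. The gene ttk (FBgn0003870) lies on chromosome 3R from 31713867 to 31735392 (plus strand), with 8 transcripts from 4 start sites. Each gene has a single value per library in FPKM (fragments per kilobase of transcript, relative to the mapped reads of the library), so the Pnt isoforms P1 and P2 and the Ttk isoforms Ttk69 and Ttk88, which differ in function, are not resolved.

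Of the 5 regulators, 2 rose at least 2-fold in glia (repo and gcm2) and 0 fell at least 2-fold, on the scale of log2(FPKM + 1). Both counts depend on the setting, because with a pseudocount of 5 only repo was at least 2-fold higher and with TPM, in which each library is rescaled to the same sum, gcm was at least 2-fold lower. Among all rows, 21.2% were at least 2-fold higher and 16.4% at least 2-fold lower in glia, and the median log2 change was 0.04. A count of 2 in 5 is too small to be set against these shares.

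GNP nuclei held gcm at 40.2 FPKM and glial nuclei at 21.5 FPKM. It was thus 1.87-fold higher in GNP, with an exact binomial interval of 1.77 to 1.97 for counting error, and the log2 change of -0.87 stayed short of the 2-fold limit. The transcript was still well above the typical gene in the glia library, where 69.4% of all rows were lower than gcm, against 78.9% in GNP. At the depth estimated from the low values, gcm had 4400 reads in GNP and 1935 in glia with the shorter transcript as its length, or 5073 and 2231 with the longer. Its last exon shares 128 bases with CG31709 on the same strand, which was at 0.419 and 0.341 FPKM and at that level would give 3 and 2 reads on the shared bases.

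The paralog gcm2 went the other way, from 2.17 FPKM in GNP to 6.80 FPKM in glia. The ratio was 3.13 (interval 2.73 to 3.59) and the log2 change 1.30. It had the lowest deposited value of the 5 regulators in each library, with 296 estimated reads in GNP and 760 in glia. In sum, gcm and gcm2 gave 42.3 FPKM in GNP nuclei and 28.3 in glial nuclei, of which gcm2 made up 5.13% and 24.0%. The 2 annotated protein-coding genes between the pair were near 0 in both libraries, CG4382 at 0.124 and 0.807 FPKM and CG3841 at 0.431 and 0.943 FPKM.

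The glial marker repo showed the largest change of the 5, from 3.84 FPKM in GNP to 32.0 FPKM in glia. The ratio was 8.32 (interval 7.68 to 9.02) and the log2 change 2.77, which was exceeded by 486 of the 13623 rows. The GNP level was below the median of the rows above 0 in that library (8.07 FPKM) and the glial level was above that of its library (9.91 FPKM). The share of rows lower than repo went from 45.8% to 77.4%. The counts behind these levels were estimated at 688 reads in GNP and 4694 in glia.

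The GNP level of repo carries a limit from its neighbour. In BDGP6 its last exon shares 183 bases, 6.11% of its exon bases, with CG7156 on the opposite strand, and whether strand was kept in the library is not given in the sources used here. CG7156 had 34.6 FPKM in GNP nuclei and 6.07 in glial nuclei, the opposite direction to repo. At those levels CG7156 would give 405 reads in GNP and 58 in glia on the shared bases. With these reads taken off, repo would have 1.58 FPKM in GNP nuclei and 31.6 in glial nuclei, a ratio of 20.0, and in GNP it would then lie below gcm2. How many reads of CG7156 were in fact assigned to repo was not tested.

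**Figure D1:**
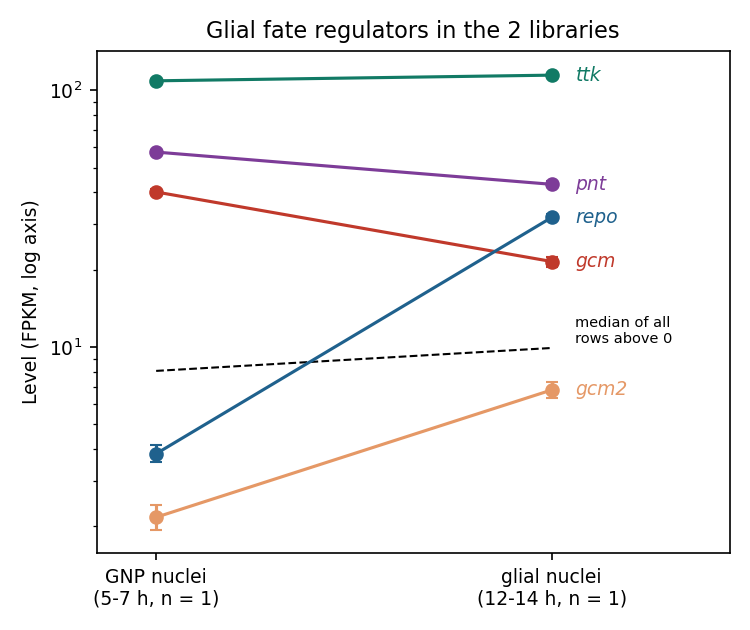
Level of each regulator (FPKM, log axis) in the GNP library and the glia library, with 1 library of each. Bars are exact Poisson intervals of the estimated reads (95%), for counting error only, and are mostly smaller than the points; the dashed line joins the medians of all rows above 0. The line of repo, from 3.84 to 32.0 FPKM, crosses that of gcm, from 40.2 to 21.5 FPKM, while ttk stays at the top.

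The ETS gene pnt had 57.4 FPKM in GNP nuclei and 43.0 in glial nuclei. It was 1.335-fold higher in GNP (interval 1.293 to 1.38) with a log2 change of -0.41, and stayed high in each library, with 85.0% and 82.6% of rows lower. Since pnt has start sites up to 50929 bases apart and 1 value, a change from P2 to P1 would not be seen here.

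The repressor gene ttk was the highest of the 5 in each library and hardly differed between them. It had 109 FPKM in GNP nuclei and 114 in glial nuclei, a ratio of 1.05 (interval 1.03 to 1.07) and a log2 change of 0.07. The direction of so small a change is set by the scaling, because with each library scaled to TPM the log2 change was -0.18. In GNP 93.2% of rows were lower than ttk and in glia 93.5%.

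**Figure D2:**
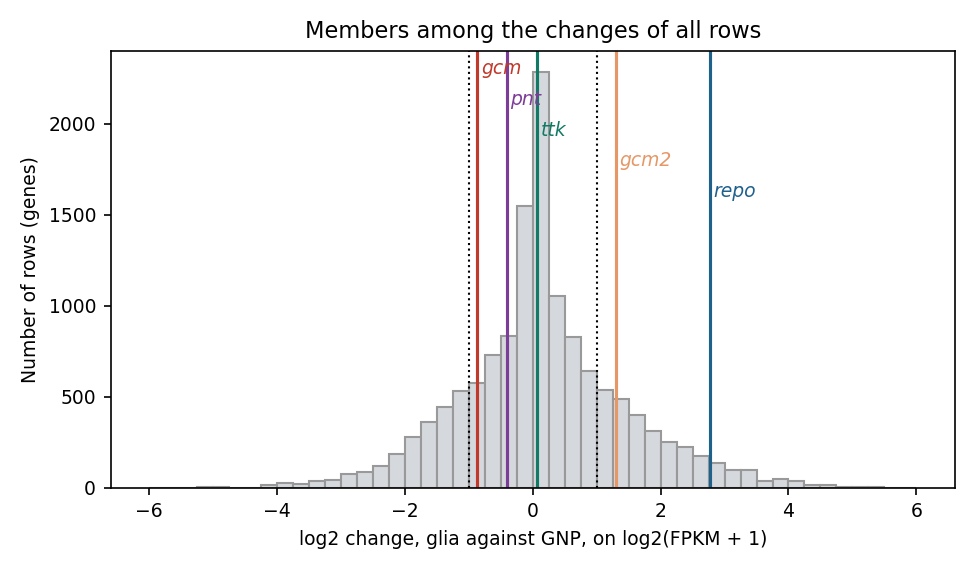
Number of rows by log2 change between glia and GNP, on log2(FPKM + 1), with the 5 regulators as vertical lines and the 2-fold limits dotted. Only repo (2.77) and gcm2 (1.30) lie outside the limits, while gcm (-0.87), pnt (-0.41) and ttk (0.07) lie within them.

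By the deposited values the order of levels in GNP was ttk, pnt, gcm, repo and gcm2, and in glia ttk, pnt, repo, gcm and gcm2. FPKM is per length, so levels can be set beside each other within a library. The intervals of neighbours did not overlap in either library, with repo at 3.56 to 4.14 and gcm2 at 1.93 to 2.43 FPKM in GNP, and with repo at 31.1 to 32.9 and gcm at 20.6 to 22.5 FPKM in glia. Without replicates the spread between libraries is not known, so this says only that counting error did not blur the order. The last places in GNP would change if all reads expected of CG7156 on the shared bases had been counted for repo. In that case, which was not tested, repo (1.58 FPKM) would be below gcm2 (2.17 FPKM). Ratios between genes of 1 library do not depend on how the library was scaled. Per FPKM, repo was at 0.0957 of gcm in GNP and at 1.49 times gcm in glia, a 15.5-fold change of the ratio. With all reads expected of CG7156 taken off, the ratio of repo to gcm would be 0.0393 in GNP and 1.47 in glia, a 37.3-fold change. The ratio of gcm2 to gcm went from 0.0541 to 0.316, and that of pnt to gcm from 1.43 to 2.00. The exchange of places between gcm and repo was therefore seen under any scaling of the libraries. The nuclei were selected with drivers of these same genes, gcm-Gal4 for GNP and repo-Gal4 for glia. The exchange cannot be taken as independent of that selection, and how far it follows from it was not tested.

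The rows most like gcm and repo were those nearest to them over log2(FPKM + 1) in the 2 libraries. For gcm these were CG11808 (40.4 and 21.6 FPKM in GNP and glia), pall (40.7 and 21.2 FPKM) and hk (39.3 and 21.5 FPKM), at distances of 0.01 to 0.03. Such neighbours were many, with 123 other rows within a distance of 0.25. For repo the nearest row was wrapper, which encodes an immunoglobulin-domain protein of midline glia, with 3.83 FPKM in GNP nuclei and 32.6 in glial nuclei, a distance of 0.03. It was followed by mtg (4.05 and 32.5 FPKM) and CG31030 (3.83 and 33.6 FPKM), and 30 other rows lay within 0.25 of repo. With only 2 libraries, a match of this kind is easily met by unrelated genes.

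Genes that act in differentiated glia were described from a list of 13, all in the table. In glia 5 of them rose at least 2-fold and 0 fell, where 21.2% and 16.4% of all rows did. The median of their log2 changes was 0.48 against 0.04 for all rows. This median was 2.75 for muscle markers, 2.48 for tendon markers, 2.28 for neuron markers and 0.37 for hemocyte markers, described below. A rise was thus not particular to the glial list. The largest rise on the glial list was that of Gat (listed as CG1732), the GABA transporter of astrocyte-like glia. It went from 3.82 FPKM in GNP to 83.7 FPKM in glia, a log2 change of 4.14. The astrocyte gene alrm followed, from 2.27 to 43.5 FPKM, and then wrapper with the values given above. Midline glia, to which wrapper was assigned above, are the exception to repo expression, and which nuclei gave the wrapper RNA was not tested. The gene moody, which encodes a G protein-coupled receptor of the blood-brain barrier, rose from 17.5 to 79.7 FPKM, and nrv2, a Na,K-ATPase subunit gene, from 98.9 to 216 FPKM. The remaining 8 did not pass 2-fold, among them the Gcm target loco, a regulator of G protein signaling, with 36.6 FPKM in GNP nuclei and 44.0 in glial nuclei. The glutamate transporter gene Eaat1 was low in each library, at 2.00 and 2.84 FPKM. The early glial gene bnb was the highest of the list, with 576 FPKM in GNP nuclei and 409 in glial nuclei.

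For the regulators and cofactors of gcm, 5 of 7 genes fell at least 2-fold in glia and 0 rose, and the list had a median change of -1.54 (log2). Among all rows 16.4% were at least 2-fold lower and 21.2% at least 2-fold higher, with a median change of 0.04. The list is short and was chosen with earlier results of these data known. The largest fall was that of ago, which encodes an F-box protein that takes part in Gcm degradation, from 193 FPKM in GNP to 27.1 FPKM in glia. The acetyltransferase gene nej, whose product CBP acetylates Gcm, fell from 91.5 to 21.4 FPKM, and the deacetylase gene HDAC3 from 43.2 to 14.3 FPKM. Notch (N), the receptor that modulates gcm expression in glial lineages, fell from 86.5 to 19.4 FPKM, and hkb, a zinc finger gene that acts with gcm in some lineages, from 22.9 to 7.95 FPKM. The remaining genes were slmb, a second F-box gene, at 58.0 and 31.4 FPKM, and numb, a Notch inhibitor, at 49.8 and 27.1 FPKM, which did not pass 2-fold. All 7 were thus lower in glia, as gcm itself was, under each scaling tried.

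Of the 18 listed genes of EGFR, Ras and MAP kinase signaling 17 were in the table, of which 3 rose and 5 fell at least 2-fold, and the median of the 17 log2 changes was -0.29. Set against the 21.2% of all rows that were higher and the 16.4% that were lower, such counts in 17 genes do not set the pathway apart. Among the ligands, spi had 180 FPKM in GNP nuclei and 164 in glial nuclei, and vn 9.58 and 7.64 FPKM. The ligand gene Krn was higher in glia, at 14.6 and 24.6 FPKM, within 2-fold. Of the genes that help to release the ligand, rho rose from 20.6 to 52.8 FPKM and S (Star) fell from 57.2 to 17.4 FPKM. The receptor gene Egfr fell from 48.6 to 21.9 FPKM, as did the Raf gene phl, from 28.2 to 11.2 FPKM, and the scaffold gene ksr, from 37.6 to 13.6 FPKM. Ras85D, the Ras gene, was at 144 and 108 FPKM and did not pass 2-fold. Neither did Dsor1 of the same pathway, which was higher in glia, at 11.8 and 17.3 FPKM.

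At the ETS step itself, aop, which encodes the repressor Yan that competes with Pnt, fell from 171 FPKM in GNP to 47.1 FPKM in glia, a log2 change of -1.84. The ratio of pnt to aop therefore went from 0.336 to 0.912, although pnt was lower in glia. The gene edl, whose product binds Yan and Pnt, was at 88.1 and 99.7 FPKM. Of the feedback inhibitors of the pathway, kek1 rose from 2.56 to 24.8 FPKM, and sty was at the limit, at 62.8 and 127 FPKM with a ratio of 2.02, while aos was at 22.1 and 22.9 FPKM.

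The 7 listed genes that act on Ttk were lower in glia, also under each scaling tried, while ttk hardly changed. Of these genes, 6 fell at least 2-fold and 0 rose, where 16.4% and 21.2% of all rows did. The list had a median change of -1.21 (log2). A fall of this size was not particular to it, since the median was -1.54 for the regulators and cofactors of gcm and -1.75 for neuroblast markers. The genes that fell include the parts of the ubiquitin ligase that degrades Ttk in the eye, with ebi from 91.5 FPKM in GNP to 19.7 FPKM in glia, phyl from 51.4 to 22.3 FPKM, and sina from 51.7 to 25.2 FPKM, the last at the limit with a log2 change of -1.01. The gene msi, whose RNA-binding product represses ttk translation in sensory organs, fell from 60.6 to 25.6 FPKM. The co-repressor genes Mi-2 and MEP-1, whose products bind Ttk69, fell from 189 to 54.6 FPKM and from 151 to 43.3 FPKM. CtBP, a co-repressor gene, was at 324 and 173 FPKM and did not pass 2-fold. The ratio of ttk to ebi went from 1.19 to 5.81 and that of ttk to Mi-2 from 0.575 to 2.10.

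**Figure D3:**
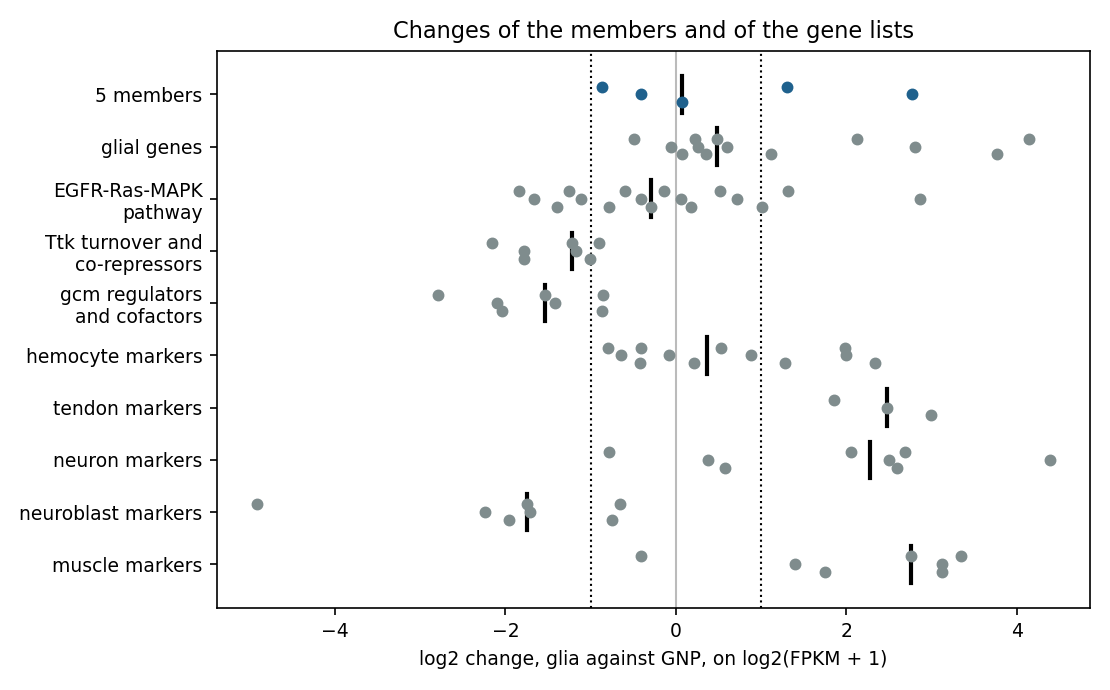
The log2 change between glia and GNP of the 5 regulators (blue points) and of each gene of the lists (gray points), with the median of each as a black bar and the 2-fold limits dotted. The regulators span -0.87 to 2.77, while all genes on the lists of Ttk partners (median -1.21) and of gcm regulators (median -1.54) lie below 0.

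Markers of other cells moved between the same libraries, counted here at the 2-fold limit. Among all rows 21.2% were at least 2-fold higher and 16.4% at least 2-fold lower in glia. Neuroblast markers fell in 5 of 7 genes, with a median change of -1.75 (log2), and summed to 369 FPKM in GNP nuclei and 101 in glial nuclei. Driver, strain and age changed together, so this fall cannot check the progenitor label. In GNP the neuroblast markers ranged from 18.9 FPKM (insc) to 109 FPKM (mira), on either side of the level of gcm (40.2 FPKM). Neuron markers rose in 5 of 8 genes, from a sum of 160 FPKM to 577 FPKM, with fne at 14.7 and 327 FPKM, while elav was at 76.9 and 44.2 FPKM. Muscle markers rose in 6 of 7 genes, from a sum of 849 FPKM to 5675 FPKM, with Mef2 at 58.3 and 43.7 FPKM as the exception. Tendon markers rose in 3 of 3 genes, from 21.9 to 113 FPKM in sum, among them sr from 1.54 to 13.1 FPKM. No neuroblast, neuron, muscle or tendon marker was listed at 0 in either library.

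Hemocyte markers concern gcm and gcm2 directly, because both are expressed in hemocyte precursors. Of the 12 listed, 4 rose at least 2-fold in glia and 0 fell, where 21.2% and 16.4% of all rows did, and they summed to 248 FPKM in GNP nuclei and 622 in glial nuclei. With a pseudocount of 0.1, 6 were higher and 1 lower, since several of these genes are near 0. The rise was that of Pxn, from 10.2 to 55.4 FPKM, Pvr, from 16.8 to 42.1 FPKM, and the collagen genes Cg25C, from 72.7 to 292 FPKM, and vkg, from 38.1 to 154 FPKM. The hemocyte regulator srp, a GATA factor gene, had 45.2 FPKM in GNP nuclei and 28.5 in glial nuclei. The ratio of gcm to srp was 0.888 in GNP and 0.755 in glia. The macrophage receptor gene crq was at 29.5 and 21.9 FPKM, and the GATA cofactor gene ush at 33.0 and 24.4 FPKM. The remaining markers were low, with Hml at 0.945 and 0.120 FPKM, He at 0.200 and 0.729 FPKM, lz at 0.522 and 0.762 FPKM, NimC1 at 0.650 and 2.03 FPKM, and eater at 0.0556 FPKM in GNP and listed at 0 in glia. The part of hemocyte, tendon, neuronal or muscle nuclei in the levels of the 5 regulators was not tested. In such bulk libraries fewer cells of a type and less RNA per cell cannot be told apart.

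**Figure D4:**
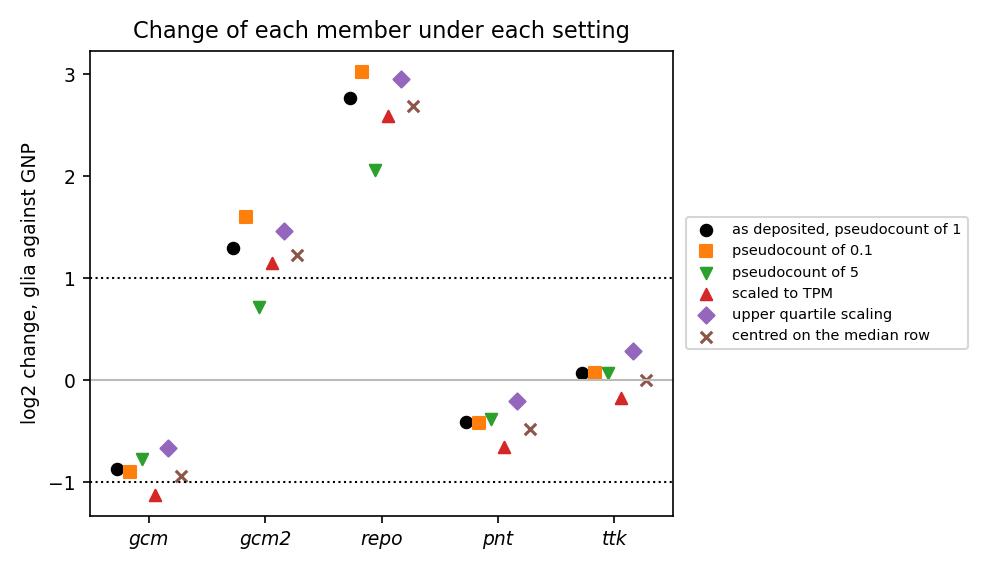
The log2 change of each regulator between glia and GNP under 6 settings, with the 2-fold limits dotted. The gene repo lies above 2-fold under each of them (2.06 to 3.025), gcm2 drops below it only with a pseudocount of 5 (0.72), and gcm passes it only when scaled to TPM (-1.12).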

How the data were processed

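RNA of purified nuclei was sequenced by the authors as 49 bp single-end reads. The reads were mapped with TopHat (version 1.3.1) against FlyBase transcripts (build dm3), and Cuffdiff (version 1.3.0) was run on uniquely mapped reads. The values deposited by the authors are FPKM per gene, a unit that the methods of the study call RPKM. A p-value and a call for each gene, also deposited, come from the authors' own comparison of the libraries and were not used.

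Values were put on the scale of log2(FPKM + 1) and GNP was subtracted from glia, so changes of low genes are understated. With no replicates, a limit of 2-fold stood in for a test. Depth was estimated as the number of reads that brings low FPKM values onto whole reads, from 4718 genes with 1 BDGP6 transcript of at least 600 bases and an assumed fragment of 200 bases. It was 64.0 M reads for GNP and 52.5 M for glia, with 82.7% and 83.1% of the genes of 0.5 to 12 reads then within 0.1 of a whole read. Intervals (95%) are exact Poisson for levels and exact binomial (Clopper-Pearson) for ratios, on reads estimated from the shortest transcript. The intervals cover counting error only and take the reads as independent. PCR duplicates are not independent, so the intervals can be too narrow even for counting error. Errors in the estimated depth, the assumed fragment or the transcript length are not covered. The depth estimate and fold counts were also run on simulated reads. These reads were drawn with the same fragment of 200 bases, so the run cannot test that assumption or the length model behind the deposited values.

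The members and the lists were chosen with earlier results of these data known. Named genes are the members, list genes that are extreme, at 0 or have a stated role, and the 3 rows nearest to gcm and to repo. In the lists, Gat, HDAC3, nSyb and NimC1 were found by an older symbol, and rl is not analysed here. A planned comparison of promoter and protein sequences was not run. Alternatives were pseudocounts of 0.1 and 5, scaling to TPM or to the upper quartile, centring on the median row, limits of 1.5-fold and 4-fold, a mean of at least 1 FPKM, and full transcript length for the reads. The work used scipy 1.17.1, numpy 2.4.6, matplotlib 3.10.9 and pandas 2.3.3 under Python 3.11.15.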

Additional observations from a re-analysis of the deposited data

How the results depend on the processing

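For 37 results 212 alternatives were run, of which 169 moved a value by less than its counting error or a count by no more than 1.5 times. A turned direction could be counted only for the log2 changes of repo and gcm2, and 0 were found. This outcome was fixed in advance. A pseudocount cannot change a sign, and the shifts of scaling given below are smaller than these changes. The rise of repo passed 2-fold under each alternative, with a log2 change of 3.025 with a pseudocount of 0.1, 2.06 with a pseudocount of 5, 2.59 when scaled to TPM and 2.95 with upper quartile scaling. Without the reads expected of CG7156 on the shared bases, an alternative chosen after seeing the data, it was 3.66. The log2 change of gcm was -0.77 with a pseudocount of 5, -1.12 with TPM and -0.665 with upper quartile scaling, so that with TPM 1 regulator was at least 2-fold lower. That of gcm2 was 1.60 with a pseudocount of 0.1 and 0.72 with a pseudocount of 5, which left 1 regulator at least 2-fold higher. That of pnt was -0.66 with TPM, -0.20 with upper quartile scaling and -0.48 when centred on the median row, and that of ttk -0.18, 0.28 and 0.00 in the same order. These steps follow the shift of each scaling, which was -0.25 for TPM, 0.21 for upper quartile and -0.07 for centring (log2, glia against GNP).

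A limit of 4-fold left 1 regulator higher, repo, and 8.46% of all rows higher and 4.51% lower, and a limit of 1.5-fold gave 1 regulator lower, gcm. A pseudocount of 5 gave 13.3% of all rows higher. With full transcript length 31.3% of low genes in GNP and 33.5% in glia were within 0.1 of a whole read, and the estimated reads of repo were 582 and 4108. No paired analysis was possible because neither cell type had a second library, and no alternative shows the spread between libraries.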
